A study of Marchantia polymorpha with 12 samples.

Results

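The response of wild type Marchantia polymorpha to UV-B was read from 6 RNA-seq libraries of a 12-library study, 3 of gemmalings given UV-B and 3 of gemmalings without it, over all 18255 genes of the deposited table. All 6 libraries came from the male wild type accession Tak-1, for which the labels name no mutant allele, and gemmalings are young thalli grown from gemmae, the asexual propagules of the liverwort. They were 7 days old and stood in white light of 50 µmol per square metre per second, to which 1.5 µmol of UV-B was added for 3 h in the treated group only. The other 6 libraries of the study, of the Mphy5 mutant with and without the same UV-B, were used here for the estimate of spread and as values beside those of wild type. The labels give no hour of harvest, so UV-B and elapsed time cannot be told apart. Nor do the labels tell whether replicates are separate cultures, and p-values then cover the spread among these libraries alone.

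Plants see UV-B through the receptor UVR8. In Arabidopsis, excited UVR8 binds the ubiquitin ligase COP1 with its SPA partners, which spares the bZIP factor HY5 from degradation. HY5 then drives genes of flavonoid sunscreens, of photolyases and of RUP proteins, and RUP proteins return UVR8 to its resting form. Marchantia holds UVR8, COP1, RUP and HY5 genes, and UV-B raises flavonoid pigments in it.

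Recovered reads per library numbered 48069880 to 53240381 with UV-B and 53402411 to 59014654 without it, and values below are normalized reads per gene, not per length. Between 2944 and 3052 genes were at 0 in a wild type library. V chromosome genes, of male plants, had 160031 to 162984 normalized reads in all with UV-B and 153979 to 156842 without. Much of these totals was 1 gene, MpVg00005, at a mean of 81614 with UV-B and 71285 without, the only V gene called up. U chromosome genes, of female plants, had 108 to 139 recovered reads with UV-B and 108 to 133 without. Whole gemmalings were measured, so fewer cells of a type and less RNA per cell cannot be told apart. Of 7 markers of oil body cells, gemma cups and male organs with a symbol in the name table, 5 were not called. The oil body factor MpC1HDZ rose (log2 fold change 0.32, limma adjusted p = 0.0011). The oil body markers MpERF13 (-0.3, adjusted p = 0.053) and MpSYP12B (-0.16, adjusted p = 0.4) went the other way and were not called. Of the gemma cup markers, MpKAR fell (-0.41, adjusted p = 1.6e-05) and MpGCAM1 was not called (-1.03, adjusted p = 0.066). The antheridial markers were low, at 28.2 to 40.7 with UV-B and 21.6 to 35.8 without for MpDUO1, and at most 1.16 with UV-B and 5.5 without for MpPRM. The part of these cells in the results was not tested. UV-B replicate 2 held the highest UV-B value in 64.8% of the at least 2-fold rises, against 35.3% of all tested genes. Replicate 2 without UV-B held the highest value of its group in 58% of the at least 2-fold falls, against 34.5% of all tested genes.

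UV-B moved many genes a little and few genes far. Of 15999 tested genes limma called 4674 (29.2%), of which 2331 rose (14.6%) and 2343 fell (14.6%) at an adjusted p under 0.05. The rises were larger: 480 genes (3.0%) rose and 176 (1.1%) fell at least 2-fold, and 152 rose and 37 fell at least 4-fold. Among the rises 61.8% were under 1.5-fold, and among the falls 81.3%. The median log2 fold change was 0.43 over the rises and -0.31 over the falls. The number of falls of at least 2-fold was 124 without replicate 2 of the group without UV-B.

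How many genes were called, and in which direction they moved far, differed with abundance. Classes were set by the mean over the 6 wild type libraries. Below a mean of 10, 3.25% of 2520 genes were called. The share was 13.2% of 2138 genes at 10 to 100, 26.0% of 3978 genes at 100 to 1000, 43.4% of 6422 genes at 1000 to 10000 and 51.8% of 941 genes above 10000. The median standard error of the log2 fold change was 0.80 in the lowest class and 0.05 in the highest, and the smallest called rise was 1.28 in the lowest and 0.11 in the highest. At low abundance a call therefore needed a large change, and smaller ones were not detectable at this depth.

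Large falls lay mostly among low genes, while large rises were spread over all classes. Below a mean of 10, 51 genes rose and 31 fell at least 2-fold. At 10 to 100 the counts were 131 rises and 80 falls, and at 100 to 1000 they were 102 and 48. At 1000 to 10000 there were 165 rises against 16 falls, and above 10000 there were 31 rises and a single fall. In Mphy5, whose libraries entered the shared estimate of spread but not the wild type folds, 15.9% of tested genes were called up and 15.9% down. The wild type rises of at least 2-fold were called up in Mphy5 in 23.5% of cases below 10, 64.1% at 10 to 100, 92.2% at 100 to 1000 and 100% in each of the higher classes. Of all tested genes of these classes, 1.87%, 7.95%, 14.2%, 23.3% and 27.8% were called up in Mphy5, from the lowest class to the highest. The wild type falls were called down there in 6.45%, 26.2%, 75%, 87.5% and 100% of cases, against 1.35%, 4.58%, 12.3%, 25.7% and 29.6% of all tested genes.

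**Figure D1:**
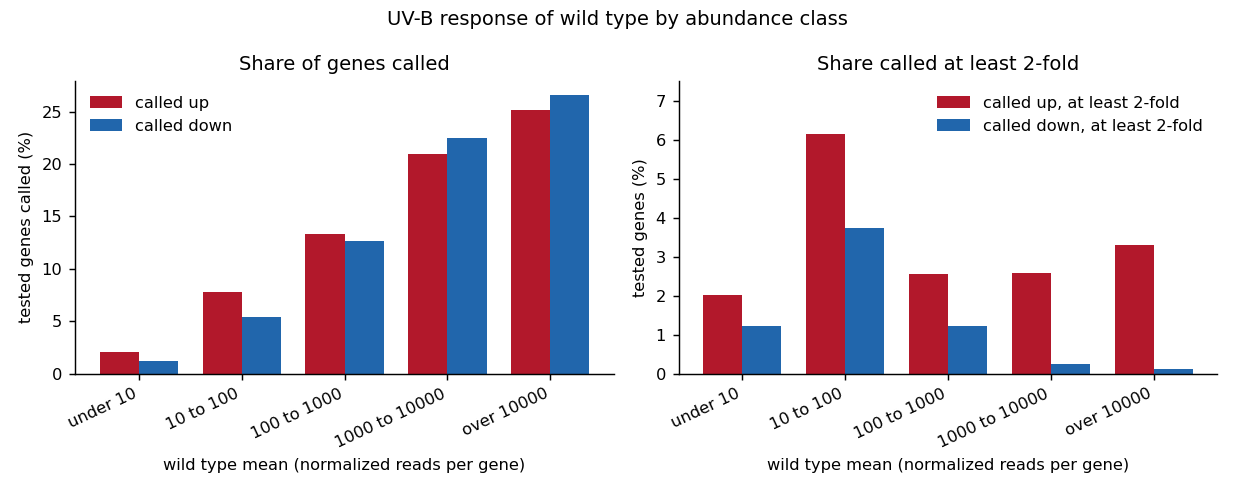
Share of tested genes called up (red) and called down (blue) with UV-B in wild type, in percent, by the mean normalized reads over the 6 wild type libraries; the left panel holds all calls and the right panel those of at least 2-fold. Calls climb with abundance to 25.2% up and 26.6% down above 10000, while falls of at least 2-fold shrink to a single gene there.

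The single fall above 10000 was Mp7g05640, which has no symbol. It stood at 7325, 7083 and 6565 with UV-B and at 13625, 17468 and 15454 without (log2 fold change -1.14, SE 0.08, limma adjusted p = 1.3e-07). Genes named by abundance class, here and in the next paragraphs, were chosen among called genes whose groups did not overlap. Their lack of overlap is therefore no added support, and rankings within a class are among such genes. The next largest fall of that class, of Mp7g05980, was 24337, 23584 and 22393 with UV-B against 46189, 47997 and 43790 without (-0.97, SE 0.11, adjusted p = 3.7e-05).

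The largest rise above 10000 was that of Mp6g14520, also without a symbol. Its values were 27043, 28944 and 25111 with UV-B and 1200, 1061 and 993.6 without, a ratio of means of 24.9 (log2 fold change 4.64, SE 0.07, adjusted p = 2.7e-19). The lowest UV-B library thus lay far above the highest library without UV-B. MpPKS/CHS2, a chalcone synthase family gene of flavonoid synthesis, followed with a log2 fold change of 3.18 (adjusted p = 3.4e-19).

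At 1000 to 10000 the largest rises were those of 2 genes without symbols. Mp5g06960 stood at 3391, 3416 and 2953 with UV-B and 416.3, 440.4 and 402.4 without (log2 fold change 2.95, SE 0.08, adjusted p = 1.7e-16). Mp3g19890 stood at 6083, 5779 and 5262 against 771.2, 752.7 and 756.5 (2.90, SE 0.06, adjusted p = 1e-17). Neither gene's groups overlapped, as the choice of genes required. The largest falls of the class were those of MpPTB3 and of MpPKS/CHS15. MpPTB3 had 519.6, 847.0 and 428.4 with UV-B and 1494, 3146 and 1955 without (-1.87, SE 0.40, adjusted p = 0.0075), with replicate 2 the highest in both groups.

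At 100 to 1000 the 2 largest rises were those of Mp5g20350 and of the aurone synthase MpAUS. Mp5g20350 had 327.8, 357.5 and 302.0 with UV-B and 12.8, 11 and 9.24 without (log2 fold change 4.79, SE 0.23, adjusted p = 1.1e-12), so the groups lay far apart. Among the falls of this class, Mp5g14940 stood at 25.6, 86.5 and 28.2 with UV-B and at 131.1, 249.2 and 144.7 without (-2.05, SE 0.47, adjusted p = 0.0022). Its groups did not overlap, again by the choice of genes, and replicate 2 was again the highest in each.

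In the low classes the falls varied more between libraries. Mp4g01460, at 10 to 100, had 10.5, 38.5 and 9.4 with UV-B and 85.3, 239.2 and 82.1 without (log2 fold change -2.84, SE 0.50, adjusted p = 0.00015). Mp5g14950, the next gene along from Mp5g14940, had 2.32, 33.9 and 4.18 against 57.8, 90.1 and 42.1 (-2.86, SE 0.93, adjusted p = 0.031), and its call was lost with a pseudocount of 0.1, without limma's trend and robust options, and on leaving out UV-B replicate 1 or 3 or no-UV-B replicate 1 or 2 (adjusted p = 0.07 to 0.15). Below 10, MpPPO24, a polyphenol oxidase gene, had 1.16, 0 and 0 with UV-B and 8.25, 15 and 9.24 without (adjusted p = 0.00039). In Mphy5 these low falls were not called, with adjusted p-values of 0.11 for Mp4g01460, 0.85 for Mp5g14950 and 0.65 for MpPPO24. Their means without UV-B were 18.2, 4.52 and 7.87 in Mphy5, against 135.5, 63.3 and 10.8 in wild type. For MpPPO24 these starting levels were within their spread (SD 5.6 in Mphy5 and 3.65 in wild type). Whether the starting level bears on the missing calls was not tested. The difference between the lines was not called either, at adjusted p-values of 0.21, 0.24 and 0.086.

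As a share of all normalized reads, the called-up genes took 25.3% to 26.6% with UV-B and 19.4% to 19.6% without. The called-down genes took 18.2% to 18.6% with UV-B and 23.1% to 23.3% without. Genes that rose at least 2-fold took 3.63% to 4.07% with UV-B and 1.43% to 1.45% without, and those that fell at least 2-fold took 0.0694% to 0.077% and 0.164% to 0.196%. Since the calls chose these genes, the shares are a description. The called-up genes gained 3989617 normalized reads in all, and 34.5% of that gain came from genes that rose at least 2-fold. The called-down genes changed by -2292564, and 2.47% of that loss came from genes that fell at least 2-fold. The loss was thus made of small changes in abundant genes. The largest 122 gains made 50% of the gain, and the largest 213 losses made 50% of the loss.

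The 5 largest gains made 7.29% of the gain. Mp2g20880 led them at 128267, 130674 and 125351 with UV-B and 53201, 51305 and 53600 without, a ratio of means of 2.43 (adjusted p = 2.6e-15). Mp2g02510 stood at 102714, 111200 and 101326 against 45731, 49994 and 49754 (2.17, adjusted p = 1.6e-12), and Mp4g19200 at 84443, 89823 and 77627 against 31141, 30007 and 29023 (2.79, adjusted p = 3.5e-14). None of these genes has a symbol, and none of their groups overlapped. MpPKS/CHS2 and Mp3g03990 completed the 5. Mp3g03990 had a ratio of means of 1.13 (adjusted p = 0.02), and its call was lost without limma's trend and robust options and on leaving out UV-B replicate 1 or 2 or no-UV-B replicate 3 (adjusted p = 0.057 to 0.092).

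The 5 largest losses made 4.59% of the loss. Mp7g05980 and Mp1g04570 led them, and Mp1g04570 had 89472, 85519 and 89179 with UV-B and 110780, 110436 and 109544 without (ratio of means 0.799, adjusted p = 2e-06). Mp8g13180 had a ratio of 0.872 (adjusted p = 0.0065). Mp1g16850 (0.903, adjusted p = 0.028) and Mp4g00930 (0.890, adjusted p = 0.017) lost their calls without limma's trend and robust options and on leaving out UV-B replicate 3 or no-UV-B replicate 2 or 3, and Mp1g16850 also without UV-B replicate 2 (adjusted p = 0.061 to 0.11 over both genes).

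Calls lay on all 8 autosomes in similar shares. Called-up genes made 13.3% to 16.2% of the tested genes of a chromosome, and called-down genes 12.8% to 16.5%. Rises of at least 2-fold made 2.67% on chromosome 1 to 3.77% on chromosome 4, where there were 76. Falls of at least 2-fold were less even, with 9 (0.353%) on chromosome 1 and 43 (2.12%) on chromosome 5. Of 50 tested genes of the V chromosome, 1 was called up and 4 down, and none of these reached 2-fold. limma, edgeR and DESeq2 called 0 of the 7 tested U genes, of which 0 had an unadjusted p under 0.05. Along the chromosomes, 316 windows of 50 successive tested genes held 1 to 17 called-up genes (median 7) and 0 to 15 called-down genes (median 7). No window held more than 6 rises or 5 falls of at least 2-fold, and the median log2 fold change of a window lay between -0.26 and 0.17.

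Rises lay beside rises, most of all between direct neighbours, and the largest falls also lay side by side. These shares are a description with no test. The order of genes came from their locus numbers, and the use of strand in counting is unstated, so neighbours that overlap cannot be told apart. The next tested gene after a called-up gene was called up in 22.1% of cases, against 14.6% of all tested genes, and 16.0% at 10 genes' distance. It was called down in 10.9%. After a called-down gene, the next was called down in 16.6%, close to the 14.6% of all tested genes. Among genes that rose at least 2-fold, the next had done so in 9.17% and the one after that in 4.79%, against 3.0% of all tested genes. Among genes that fell at least 2-fold the shares were 10.2% and 6.25%, against 1.1%, from 18 and 11 pairs among 176 genes.

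Among genes with a mean of at least 100, the next gene had also risen at least 2-fold in 6.71% of cases and the one after that in 1.68%, against 2.63% of such genes. For falls of at least 2-fold these shares were 15.4% and 4.62%, against 0.573%. They rest on only 10 and 3 pairs among 65 genes. The run of 5 phenylalanine ammonia-lyase and chalcone synthase genes on chromosome 4, described below, lies wholly within this set and supplies several of the pairs. Near-identical copies that lie side by side can share reads, which was not tested. Low genes beside a strong riser were looked at in the same way. Of 87 genes with a mean under 100 next to a gene of mean 1000 or more that rose at least 2-fold, 16 (18.4%) rose at least 2-fold themselves, against 3.91% of all 4658 low genes. Whether reads that run past the end of the riser add to these values was not tested.

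**Figure D2:**
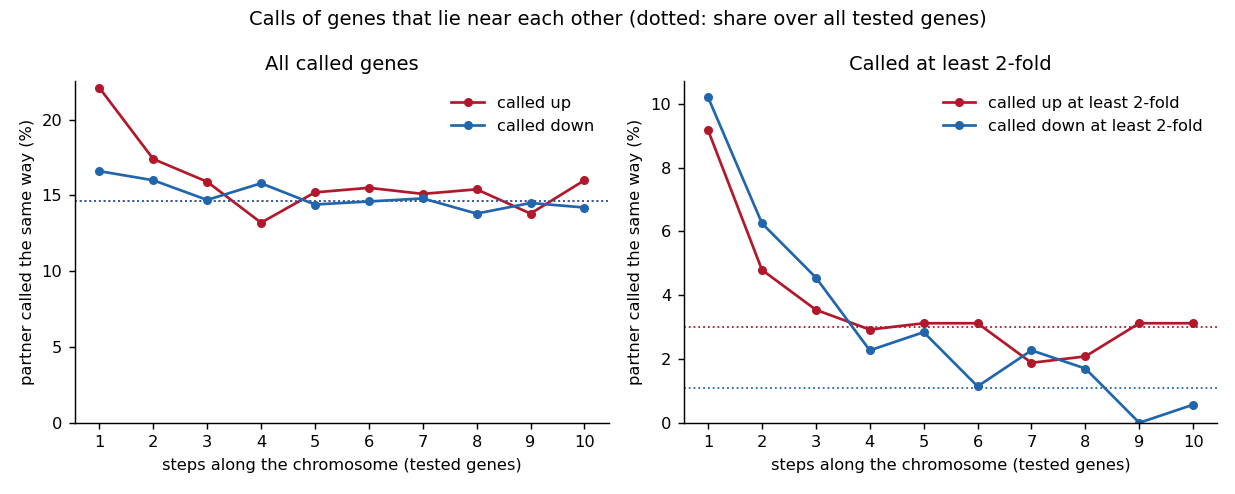
Percent of genes whose partner, 1 to 10 tested genes farther along the chromosome, was called the same way in wild type, for all calls (left) and for calls of at least 2-fold (right); dotted lines give the share over all tested genes. Pairs called up stand at 22.1% for direct neighbours and between 13.2% and 17.4% from the second gene on. Pairs of falls of at least 2-fold exceed their line up to 8 genes' distance. From the fourth gene to the eighth this rests on only 2 to 5 pairs per step, with 1.14% against 1.1% at the sixth.

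Neighbouring genes that moved at least 2-fold together formed 37 runs of rises and 11 runs of falls. The runs of rises held 81 genes in 44 neighbouring pairs, with 31 runs of 2 genes, 5 of 3 and 1 of 4. The runs of falls held 27 genes. In Mphy5, 84.0% of the genes in runs of rises and 48.1% of those in runs of falls were called the same way, near the 80.4% and 42.0% of all wild type rises and falls of at least 2-fold. Of the 37 runs of rises, 22 joined genes whose reads, not per length, lay more than 10-fold apart, and 25 had a member with a mean under 100. Pairs with symbols included the dirigent genes MpDIR1 and MpDIR2 and, among the falls, MpPTB2 and MpPTB3 and the peroxidase genes MpPOD125 and MpPOD126.

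The longest run of rises was Mp4g18580, Mp4g18590, Mp4g18610 and Mp4g18620 on chromosome 4, none of which has a symbol. Mp4g18590 had 88.3, 79.4 and 62.7 with UV-B and 0, 0 and 1.03 without. Mp4g18580 had 66.3, 72.4 and 40.8 against 0 in each library without UV-B. Both genes stood near 0 in every library without UV-B. Mp4g18620 had 26.7, 67.8 and 46.0 against 1.83, 0 and 0, and Mp4g18610 had 11.6, 38.5 and 25.1 against 0 in each. All 4 were called up in Mphy5, by 3.56 to 4.94 on the log2 scale. The flanking gene Mp4g18560 had 1.16, 4.67 and 3.13 with UV-B and 0 in each library without (adjusted p = 0.064). On the other side Mp4g18630 was too low to be tested, and Mp4g18640, at a mean of 2043 with UV-B and 2281 without, fell slightly (log2 fold change -0.16, adjusted p = 0.023).

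MpCOP1, the ubiquitin ligase gene of light signalling, stood at the head of a run of 3 rises on chromosome 5. MpCOP1 had 5874, 6353 and 5680 with UV-B and 2880, 2790 and 2740 without (log2 fold change 1.09, adjusted p = 3.9e-13). The next gene, Mp5g12020, had 10.5, 11.7 and 9.4 against 0.92, 0 and 0 (adjusted p = 0.00043). Mp5g12030 had 323.2, 337.6 and 256.0 against 58.7, 57.0 and 86.2, a larger relative change than that of MpCOP1 (2.18, SE 0.22, adjusted p = 1.7e-07). Mp5g12040 beyond it rose by 0.76 (adjusted p = 0.00027), and Mp5g12050 after it was not called (adjusted p = 0.13). On the near side of MpCOP1, Mp5g12000 was not called (adjusted p = 0.17) and Mp5g11990 fell by 0.31 on the log2 scale (adjusted p = 0.012). In Mphy5 all 3 genes of the run were called up.

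**Figure D3:**
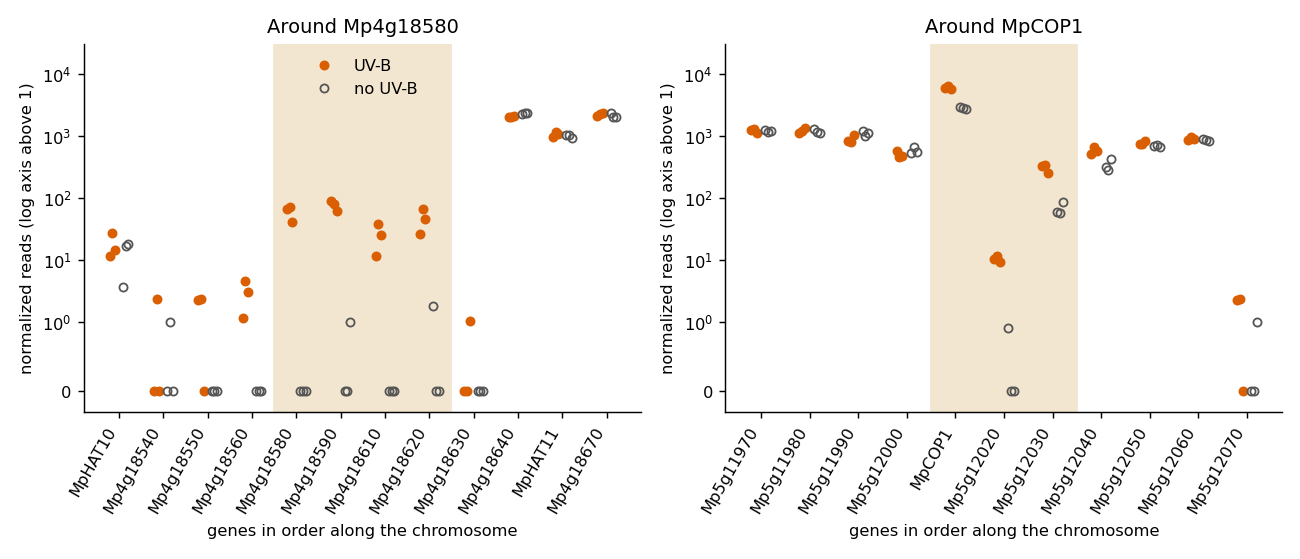
Normalized reads (log axis above 1, with 0 marked) in each of the 3 libraries with UV-B (filled) and the 3 without (open), for genes in order along the chromosome around Mp4g18580 (left) and around MpCOP1 (right); shading marks the run of genes called up at least 2-fold. On the left the 4 shaded genes stand between 11.6 and 88.3 with UV-B and at most 1.83 without, with low reads of Mp4g18560 beside them in the UV-B libraries only, and on the right MpCOP1 and the 2 genes after it rise together.

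A run of 3 rises on chromosome 7 was less secure. Mp7g00670 had 196.4, 206.8 and 158.8 with UV-B and 18.3, 23.0 and 18.5 without (log2 fold change 3.17, adjusted p = 1.2e-08), and Mp7g00660 had 39.5, 40.9 and 52.2 against 6.42, 3.0 and 0 (adjusted p = 4.3e-05). Mp7g00680 had 6.97, 7.01 and 9.4 against 3.67, 0 and 2.05 (adjusted p = 0.048), and lost its call in 13 alternatives, among them edgeR, DESeq2 and all libraries left out but no-UV-B replicate 1 (adjusted p = 0.057 to 0.24). The longest run of all was one of 5 falls on chromosome 4, of phenylalanine ammonia-lyase and chalcone synthase genes from MpPAL-like2 to MpPAL4, with a median log2 fold change of -1.56. Its member MpPKS/CHS13 had 51.1, 12.8 and 88.8 with UV-B and 167.8, 155.2 and 143.7 without (-1.96, SE 0.61, adjusted p = 0.04), a call lost with the replicate block, with the wild type libraries alone, and without UV-B replicate 1 or any of the libraries without UV-B (adjusted p = 0.055 to 0.1).

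Few genes went from near silence to a clear signal. A gene was taken as switched on when it had at most 3 recovered reads in every library without UV-B and at least 10 in every library with it. Of 3254 genes at or under the first limit, 9 met the second, or 0.0493% of all genes. By the reverse rule 2 genes (0.011%) were switched off, Mp8g07980 and Mp5g08760. The values chose these genes and so carry no test, and folds cover counting error only. A further 12 genes had their lowest UV-B library at 5 to 9 reads, among them Mp5g12020 beside MpCOP1. Another 13 had 4 to 6 reads in their highest library without UV-B, among them Mp2g21840 with 116, 117 and 138 reads with UV-B and 3, 6 and 5 without.

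The 4 genes of the run at Mp4g18580 made up much of this set. Mp4g18590 had 76, 68 and 60 reads with UV-B and 0, 0 and 1 without, a ratio of 233.8 (95% exact interval 41.5 to 9279). Mp4g18580 had 57, 62 and 39 reads against 0, at least 20.3-fold higher against a floor of 3 reads per library, and Mp4g18610 was at least 8.52-fold higher by the same floor. Mp4g18620 had 23, 58 and 44 reads against 2, 0 and 0. Elsewhere, Mp2g06530 on chromosome 2 had 28, 33 and 17 reads against 0, at least 10.1-fold higher. In the Mphy5 libraries each of these 5 was called up too, with log2 fold changes of 3.56 to 4.94.

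The other 4 gave mixed values in Mphy5. MpHD19, a homeobox gene, had 11, 18 and 27 reads with UV-B and 0, 2 and 0 without in wild type. In Mphy5 it had 3, 4 and 3 with UV-B and 1, 1 and 7 without (log2 fold change 0.57, adjusted p = 0.58). Mp7g09840 had 14, 13 and 13 reads against 0 in wild type, at least 5.1-fold higher, and 0, 5 and 0 against 1, 0 and 0 in Mphy5 (adjusted p = 0.74). For neither gene did the difference between the lines pass the threshold, at adjusted p-values of 0.051 and 0.057, against 4.46% of tested genes for which it did. Mp7g03370 had 15, 14 and 11 reads against 3, 2 and 3 in wild type and 25, 11 and 11 against 0 in Mphy5, where it was called up too (adjusted p = 6.2e-06). Mp6g16370 had 25, 25 and 15 reads against 3, 2 and 3 in wild type, but 209, 307 and 168 with UV-B and 131, 131 and 120 without in Mphy5, where it was called up as well (log2 fold change 0.99, adjusted p = 0.019). It was thus near silent without UV-B in wild type and not in Mphy5.

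**Figure D4:**
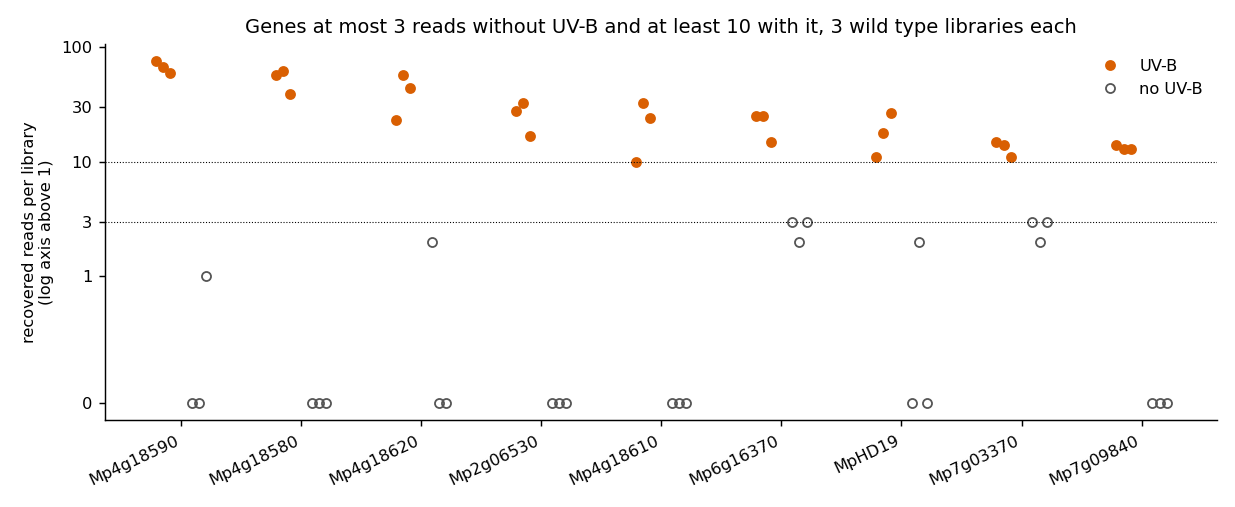
Recovered reads per library (log axis above 1, with 0 marked) of the 9 switched-on genes in the 3 wild type libraries with UV-B (filled) and the 3 without (open); dotted lines mark the limits of 3 and 10 reads that chose them. No point with UV-B lies among the points without it, and 4 genes had 0 reads in every library without UV-B.

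Most light signalling genes rose. Of 18 tested genes 10 rose (55.6%) and 2 fell (11.1%), against 14.6% each way over all tested genes. In the class of 1000 to 10000, which holds the list's median level of 4990, 21.0% rose and 22.5% fell. The list's median log2 fold change was 0.21, against -0.01 over all tested genes. The rises included the signalling genes MpBZIP1 (taken as MpHY5 from published nomenclature), MpRUP, MpCOP1, MpCRY-DASH and the B-box gene MpBBX2, each at least 2-fold. Smaller rises reached several photoreceptor and repressor genes. The phytochrome gene MpPHY had 13894, 14291 and 13373 with UV-B and 9704, 9723 and 9581 without (0.52, SE 0.05, adjusted p = 1.5e-08). MpSPA1, whose Arabidopsis relatives work with COP1, had 6042, 6521 and 5784 against 4797, 4380 and 4514 (0.42, SE 0.06, adjusted p = 6.2e-06). Their groups did not overlap. MpDET1, another repressor of light responses in Arabidopsis, rose by 0.89 (adjusted p = 4e-11), the cryptochrome gene MpCRY by 0.18 (adjusted p = 0.0014) and MpBBX1 by 0.24 (adjusted p = 0.00044).

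On the other side, MpBBX5 fell, with 14542, 14968 and 14543 with UV-B and 19370, 20300 and 19561 without (log2 fold change -0.43, SE 0.04, adjusted p = 5e-08). MpBBX4 had -0.14 (adjusted p = 0.018), a call lost on leaving out replicate 1 or 2 of either group (adjusted p = 0.053 to 0.06). Not called were MpUVR8, MpDDB1, the phototropin gene MpPHOT, MpFHY1, MpBBX3 and MpBBX6. The receptor gene MpUVR8 stood at 6255, 6119 and 5979 with UV-B and 6027, 6425 and 6446 without, and these ranges overlapped. The B-box genes thus went in both directions, with MpBBX1 and MpBBX2 up and MpBBX4 and MpBBX5 down.

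Glycosyltransferases, which build sugar chains such as those of the cell wall, had many more falls than rises. The list held only symbols that begin with GT and a number, so UGT genes such as MpUGT15 were not in it. Of 83 tested, 6 rose (7.23%) and 33 fell (39.8%), with a median of -0.19, against 14.6% each way over all tested genes and 22.5% down in the class of 1000 to 10000. In family GT34, which holds xyloglucan xylosyltransferases in other plants, 7 of 12 fell and no other was called. In GT8, 5 of 12 fell and no other was called, and in GT48, the callose synthase family, all 3 fell. Family GT37, of fucosyltransferases, was split, with 5 rises and 6 falls among 18. MpGT34.7 had 2297, 2243 and 2250 with UV-B and 3236, 3796 and 3422 without (-0.62, SE 0.06, limma adjusted p = 3.6e-08), and MpGT61.1 had 1532, 1346 and 1521 against 2150, 2169 and 2189 (-0.57, SE 0.06, adjusted p = 1.1e-07). For both, all UV-B libraries lay below all libraries without UV-B. MpGT37.3 stood apart with a rise of 2.03 on the log2 scale.

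Receptor-like kinases, which carry signals from outside the cell, had 6 rises (6.9%) and 21 falls (24.1%) among 87, against 14.6% each way over all tested genes. At 100 to 1000, the class of the list's median level of 791.2, 13.3% rose and 12.7% fell. The list's median log2 fold change was -0.18. The falls were mostly small, such as that of MpRLK-Pelle_RLCK-II with 5631, 5818 and 6150 with UV-B against 7194, 7586 and 7385 without (-0.33, adjusted p = 2.1e-05). MpRLK-Pelle_L-LEC26, of the lectin kinases, fell further, with 238.3, 350.5 and 273.8 against 478.7, 673.6 and 600.5 (-1.02, SE 0.15, adjusted p = 1.9e-05). MpRLK-Pelle_PERK-2b rose by 0.75 (adjusted p = 2.7e-07).

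Pentatricopeptide repeat genes, whose proteins process RNA in chloroplasts and mitochondria, were called up more often than down. Of 73 tested, 25 rose (34.2%) and 5 fell (6.85%), with a median of 0.09. Over all tested genes 14.6% were called each way. At 1000 to 10000, the class of the list's median level of 1471, 21.0% rose and 22.5% fell. MpPPR_16 stood apart from the family, with 11578, 12616 and 9759 with UV-B and 1642, 1810 and 1594 without, a ratio of means of 6.73. The other rises were under 2-fold, among them MpPPR_36 (0.85, adjusted p = 1.1e-10), MpPPR_49 (0.83, adjusted p = 1.5e-10) and MpPPR_10 (0.73, adjusted p = 1.8e-08).

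ABC transporters, which move compounds across membranes, had 30 rises (32.3%) and 18 falls (19.4%) among 93, against 14.6% each way over all tested genes. At 1000 to 10000, the class of the list's median level of 1904, 21.0% rose and 22.5% fell. Of the list's rises 7 were at least 2-fold, and none of its falls were. In that class 2.57% of genes rose and 0.249% fell at least 2-fold. MpABCI7 had 8270, 8588 and 7542 with UV-B and 1625, 1492 and 1665 without (2.35, SE 0.06, adjusted p = 1.5e-16). MpABCI9 had 8087, 7927 and 7337 against 2056, 2057 and 1899 (1.96, SE 0.05, adjusted p = 2.1e-16), and MpABCC14 had 15972, 16811 and 14941 against 6148, 5434 and 5725 (1.46, SE 0.05, adjusted p = 6.7e-15). All 3 rose in every library above the range without UV-B. MpABCC8 rose by 1.22.

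Dirigent genes, whose proteins steer the coupling of phenolic radicals, were called in shares near those of all tested genes when changes of any size are counted. Of 48 tested, 5 rose (10.4%) and 9 fell (18.8%), against 14.6% each way. All 5 rises were at least 2-fold, a size reached by 3.0% of all tested genes. At 100 to 1000, the class of the list's median level of 188.9, 13.3% rose, 12.7% fell and 2.56% rose at least 2-fold. MpDIR20 had 967.2, 892.5 and 953.0 with UV-B and 269.6, 177.2 and 244.3 without (2.04, SE 0.15, adjusted p = 1.6e-09). MpDIR27 had 534.7, 486.0 and 522.5 against 160.5, 142.1 and 160.1 (1.73, SE 0.13, adjusted p = 2e-09), and MpDIR25 had 3934, 4123 and 3516 against 1362, 1535 and 1602 (1.36, SE 0.07, adjusted p = 6.7e-12). None of these groups overlapped. MpDIR2, at the end of a run with MpDIR1, rose by 1.33 (adjusted p = 2.3e-07).

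Of 33 tested 2-oxoglutarate-dependent dioxygenases, a family with enzymes of flavonoid and hormone metabolism, 11 rose (33.3%) and 4 fell (12.1%). Over all tested genes 14.6% were called each way. At 100 to 1000, the class of the list's median level of 733.6, 13.3% rose and 12.7% fell. MpDOXC18 had 7316, 7992 and 6902 with UV-B and 2672, 2777 and 2680 without (1.45, SE 0.05, adjusted p = 1.2e-14), and MpDOXC6 had 3217, 3108 and 3071 against 1000, 898.9 and 1091 (1.65, SE 0.08, adjusted p = 1.4e-12). MpDOXC17, near MpDOXC18 by locus number, rose by 0.96. Late embryogenesis abundant and dehydrin genes, known for protecting cells from drying, had 14 rises (21.2%) and 5 falls (7.58%) among 66, and 9 rises of at least 2-fold. At 10 to 100, the class of this list's median level of 61.4, 7.81% rose, 5.38% fell and 6.13% rose at least 2-fold. MpLEA-like29 had 5564, 6326 and 4799 with UV-B and 2139, 2743 and 2356 without (1.20, SE 0.13, adjusted p = 3.3e-05), and MpLEA-like4 had 246.4, 237.2 and 230.9 against 96.3, 128.1 and 98.5 (1.15, SE 0.16, adjusted p = 1.1e-05). The dehydrin MpDHN1 rose by 2.89 (adjusted p = 3.2e-06). Values of single members of these families are uncertain where near-identical copies share reads.

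Glutathione S-transferases, which conjugate glutathione to reactive compounds, had 9 rises (27.3%) and 3 falls (9.09%) among 33, none at 2-fold. Over all tested genes 14.6% were called each way. At 1000 to 10000, the class of the list's median level of 2006, 21.0% rose and 22.5% fell. MpGST25 had 3454, 3568 and 3335 with UV-B and 2306, 2268 and 2201 without (0.61, SE 0.05, adjusted p = 2.6e-09), and MpGST17 rose by 0.51. Cupins, a family of seed-storage and germin type proteins, had 5 rises (8.47%) and 2 falls (3.39%) among 59 at a median level of 90.4. At 10 to 100, the class of that level, 7.81% of tested genes rose and 5.38% fell. MpCupin84 had 19558, 17098 and 17526 against 11006, 9255 and 9963 (0.84, SE 0.09, adjusted p = 3.9e-06), and MpCupin57 rose by 1.52 (adjusted p = 0.00014).

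Transcription factor families had calls in both directions, to be read beside the 14.6% called each way over all tested genes. The shares of the abundance class are closer to their levels. At 1000 to 10000, the class of the median levels of the bHLH, bZIP, C2H2, homeobox, NAC and GATA lists, 21.0% rose and 22.5% fell. At 100 to 1000, the class of the WRKY and GRAS lists, 13.3% rose and 12.7% fell. Of 41 bHLH genes 10 rose (24.4%) and 13 fell (31.7%), of 13 bZIP genes 3 rose (23.1%) and 5 fell (38.5%), and of 13 WRKY genes 2 rose (15.4%) and 4 fell (30.8%). Of 23 C2H2 zinc finger genes 6 rose and 3 fell, of 18 homeobox genes 4 rose and 1 fell, and of 9 NAC genes 2 rose and 1 fell. GRAS genes had 1 rise and 2 falls among 11, and GATA and C2C2 genes 2 and 2 among 5. Some of these few calls were not stable. The homeobox fall, of MpC2HDZ, was lost with edgeR and on leaving out any library but no-UV-B replicate 1 (adjusted p = 0.053 to 0.12). The NAC fall, of MpNAC5, was lost without limma's trend and robust options, with the wild type libraries alone, and on leaving out replicate 1 or 3 of either group (0.053 to 0.16). The rise of MpNAC7 was lost on leaving out UV-B replicate 1 or 2 or no-UV-B replicate 1 or 3 (0.095 to 0.13). The fall of MpGRAS8 was lost without limma's trend and robust options and on leaving out UV-B replicate 1 or no-UV-B replicate 2 (0.056 to 0.13). Apart from MpBZIP1, the bZIP genes moved by less: MpBZIP8 had 4899, 5180 and 5275 with UV-B and 7435, 7750 and 7881 without (-0.59, SE 0.04, adjusted p = 1.7e-09), and MpBZIP9 rose by 0.38 (adjusted p = 5.8e-05). MpBHLH3 had 685.9, 720.8 and 775.4 against 402.6, 388.4 and 449.6 (0.81, SE 0.08, adjusted p = 8.8e-08), and MpBHLH21 had 1119, 1186 and 1286 against 1919, 1875 and 1827 (-0.65, SE 0.07, adjusted p = 5.6e-07). Of the zinc finger genes, MpC2H2-21 rose most, with 82.5, 80.6 and 66.9 against 3.67, 3.0 and 11.3 (3.66, SE 0.45, adjusted p = 2e-06). MpWRKY12 rose by 0.48 and MpWRKY11 fell by 0.28 on the log2 scale.

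Signalling kinases and ubiquitin adaptors moved little, and their calls are to be read beside the 14.6% called each way over all tested genes. At 1000 to 10000, the class of the kinase list's median level of 4287, 21.0% rose and 22.5% fell. Of 10 calcium and MAP kinase genes 2 rose, MpMPK3 by 0.36 (adjusted p = 8.6e-07) and MpMPK2 by 0.19 (adjusted p = 0.0027), and MpCIPK-A fell by 0.13 (adjusted p = 0.022), a call lost on leaving out UV-B replicate 1 or 3 or no-UV-B replicate 2 (adjusted p = 0.055 to 0.095). The heat shock factor gene MpHSF1 had 938.1, 949.8 and 1008 with UV-B and 958.3, 922.9 and 1034 without, which overlap (adjusted p = 0.96). limma, edgeR and DESeq2 called 0 of 3 ubiquitin ligase adaptor genes, of which 0 had an unadjusted p under 0.05.

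**Figure D5:**
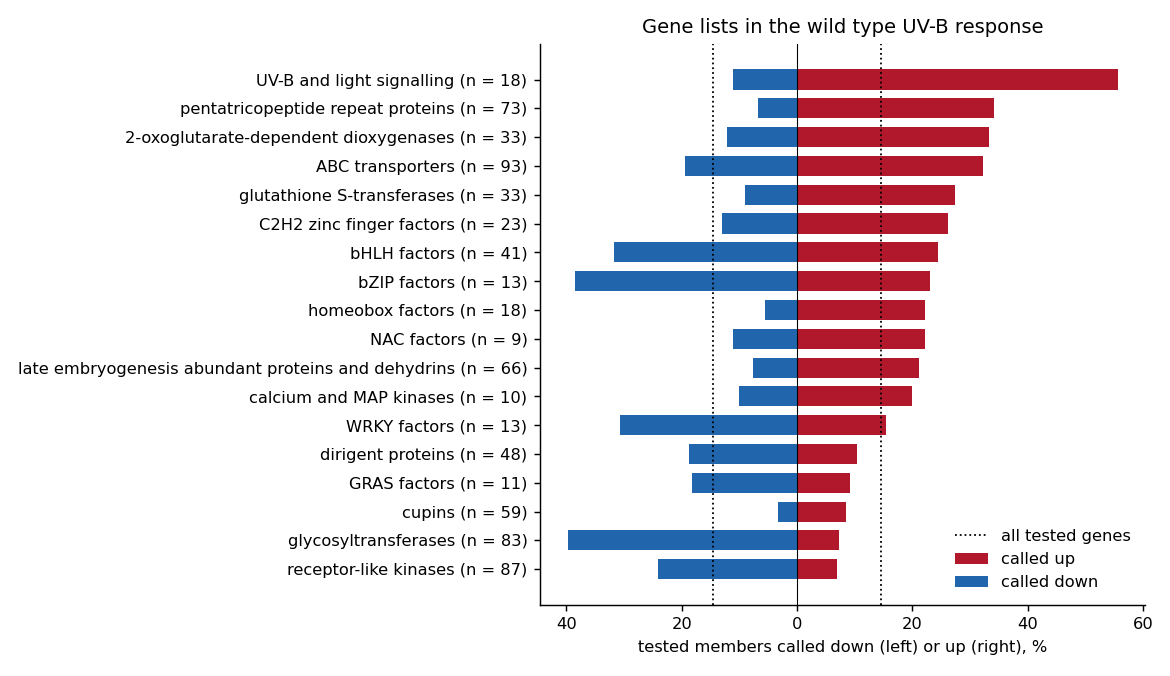
Percent of tested members called up (red, right of 0) or down (blue, left of 0) with UV-B in wild type, by gene list. Only lists with at least 9 tested genes are shown. Dotted lines give the 14.6% called in each direction over all tested genes. Among the lists shown, light signalling reaches furthest to the right at 55.6%, and glycosyltransferases reach furthest to the left at 39.8%.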

How the data were processed

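RNA was taken with an RNeasy Plant Mini kit and TruSeq libraries gave NovaSeq single-end reads of 100 bases, per the labels' protocols. The submitters' processing notes name the aligner STAR 2.7.4. The sources used here do not give the build, annotation, counting program or strand use. Values are a normalized signal deposited by the authors, and the low values show them to be read counts divided by 1 factor per library. Whole reads were recovered from the steps between them (100.0% whole within 0.02 reads). Floors are 3 reads per library.

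Of 18255 identifiers, 18082 (99.1%) matched a RefSeq table of assembly MpTak2_v7.1, used for symbols and gene order only.

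limma 3.58.1 in R 4.3.3 was fitted to log2(value + 1), with a mean for each of 4 groups over 12 libraries, 8 residual degrees of freedom, trend and robust options, and Benjamini-Hochberg adjustment over the 15999 genes that reached a value of 1 in 3 or more libraries. Called means an adjusted p under 0.05. Fold changes are on this scale and understate the change of low genes.

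Named genes were the 2 largest rises and falls of each abundance class with no overlap between groups, the switched-on genes, the 4 longest runs, the 5 largest gains and losses in reads, up to 4 members of each of 21 symbol lists by smallest p, and the light signalling list. Genes given only as neighbours or edge cases were chosen after their values were seen. The members and lists were chosen with earlier results of these data known. Lists are described by counts, with no set test.

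Other settings tried were a pseudocount of 0.1 or 5, a filter at 5 or none, rescaling by TMM or median ratio, wild type libraries alone, a block for replicate numbers, leaving out each library, limma without trend and robust, and, on recovered reads, edgeR 4.0.16 and DESeq2 1.42.0. The limma fit was tried on simulated counts of 15999 genes, of which 200 were changed, all with a mean of at least 10. It recovered 73.1% of changes of 1.5-fold, 82.1% of 2-fold and 97% of 4-fold, and 6.1% of its calls were false. Far fewer genes changed there than were called here, and genes with a lower mean were not covered. Python 3.11.15, pandas 2.3.3, scipy 1.17.1 and matplotlib 3.10.9 made tables and plots.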

Additional observations from a re-analysis of the deposited data

Results flagged for a closer look

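The named genes below were flagged because their UV-B responses differed between Mphy5 and wild type in limma's test of that difference, which called 714 of 15999 genes (4.46%). Values are log2 differences, Mphy5 response minus wild type response, with adjusted p-values, and no explanation was weighed.

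Among light signalling genes the response was larger in Mphy5 for MpBBX2 (2.01, adjusted p = 1e-05), MpBZIP1 (1.21, 1.1e-08), MpRUP (1.11, 1.9e-07), MpCOP1 (1.02, 3.5e-08), MpDET1 (0.92, 3.4e-07), MpBBX3 (0.65, 0.00089) and MpBBX1 (0.29, 0.013), and lower for MpBBX5 (-0.24, 0.016). MpBZIP1 is the gene taken as MpHY5, the one the mutant is named for. Its transcript was present in Mphy5, at a mean of 16122 with UV-B and 1545 without, against 6033 and 1339 in wild type. What the mutant allele alters was not analysed here. Of the largest changes by abundance class, Mp5g06960 (0.87, 8.4e-05), MpPKS/CHS2 (0.62, 7.3e-05) and Mp6g14520 (0.59, 0.00084) rose more in Mphy5, and Mp5g20350 rose less (-2.28, 0.0002). In the run of falls, the differences were 0.41 (0.0067) for MpPKS/CHS14 and 0.65 (0.034) for MpPKS/CHS15. The switched-on gene Mp6g16370 had -1.80 (0.021).

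Other list members with a positive difference were MpGATA4 (0.62, 5.3e-06), MpPPR_16 (0.46, 0.016) and MpC2H2-14 (0.30, 0.035). Negative differences were found for MpKFB01_20 (-0.86, 0.00042), MpBHLH3 (-0.55, 0.0055), MpDIR25 (-0.48, 0.0082), MpGRAS1 (-0.41, 0.0022), MpRLK-Pelle_RLCK-II (-0.41, 0.0013), MpBHLH45 (-0.36, 0.0076), MpBHLH21 (-0.36, 0.048), MpNAC2 (-0.36, 0.047) and MpPPR_49 (-0.34, 0.0096).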

How the results depend on the processing

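The counts of rises and falls stayed within 1.5 times their main values under every alternative run. Leaving out 1 library gave 2033 to 2287 rises and 1860 to 2242 falls, 433 to 505 rises and 124 to 213 falls of at least 2-fold, and 36 to 46 neighbouring pairs of such rises. TMM rescaling, which moved the median by 0.011 on the log2 scale, gave 2456 rises and 2203 falls. The same-numbered libraries with and without UV-B correlated by -0.06, 0.25 and 0.12 in their deviations, so the numbers were not taken as pairs; the fit with the replicate block called 2370 rises and 2411 falls. The number of switched-on genes depended on its limits, with 4 genes at 0 reads without UV-B, 16 at up to 5 reads, 3 at 20 or more reads with UV-B, and 10 to 14 with 1 library left out (14 without replicate 2 of the group without UV-B), where fewer libraries had to meet the rule. Of 121 called named genes, 12 lost their call in at least 1 alternative and none was called in the opposite direction. Over rescaling, edgeR, DESeq2, the block and wild type libraries alone, 31 to 33 glycosyltransferases and 20 to 24 receptor-like kinases fell, and 24 to 26 pentatricopeptide repeat genes rose. Motifs in promoters and protein identity of neighbours were not run. Depth limits the low classes, where a called change had to be large.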
